A study of Mus musculus with 6 samples.

Results

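A mouse array made for long noncoding RNA holds 60915 probes, of which only those with a RefSeq accession were looked up by gene here. Whether others read enzymes was not examined. Described are 6 probes named for protein-coding enzymes of basic metabolism: Gapdh, Ldhal6b, G6pd2, Gk, Hprt and Gusb. They are 6 of the 15 genes that the files name by a RefSeq accession, were chosen by probe name and not by measured value, and each has 20 spots on every array. The cells were OCCM-30, an immortalised mouse line with features of cementoblasts, the cells that lay down cementum on tooth roots. They were grown in serum-containing medium. Control cells received 0.1% acetic acid, the vehicle, for 6 h of each 24 h cycle. PTH cells received 100 ng/ml parathyroid hormone in that vehicle on the same schedule. Both then had 18 h in fresh medium and were collected after 2 cycles. There were 3 control and 3 PTH samples, which the labels call biological replicates, each on 1 array. A single immortalised line in culture stands for the tissue.

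Parathyroid hormone acts through a G protein-coupled receptor that raises cyclic AMP, and in cells of the bone lineage it can shift glucose use. The 6 enzymes cover several routes. Gapdh and the lactate dehydrogenases belong to glycolysis and its end step, and glucose-6-phosphate dehydrogenase opens the pentose phosphate pathway, a source of NADPH. Glycerol kinase, encoded by Gk, phosphorylates glycerol. Hprt salvages purine bases, and Gusb, beta-glucuronidase, breaks down glycosaminoglycans in lysosomes. Gapdh, Hprt and Gusb are widely used as reference genes in expression work.

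Only G6pd2 and Ldhal6b are testis-type copies. G6pd2 is an autosomal retrocopy of the X-linked gene G6pdx, known for expression in male germ cells, and the RefSeq table lists it also as G6pdx-ps1. Ldhal6b is an intronless lactate dehydrogenase gene, likewise known from testis. Gk is the X-linked glycerol kinase of many tissues, not a testis copy. The probes' own sequences were not used here, so signal from G6pd2 and from G6pdx, or from Ldhal6b and related lactate dehydrogenases, cannot be told apart. Other genes of these routes were listed to be counted, 40 in all, and 0 of them had a probe with a RefSeq name, although 1, Pgk1, has control spots. No RefSeq-named probe was found either for the 22 markers of cementoblasts, testis germ cells, fibroblasts and macrophages, so the labelled cell type was not checked here.

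The sequence upstream of the annotated start is shown for the 2 testis-type genes and for Hprt, to set them beside a gene active in nearly all cells. Each is the 250 bases before the start in RefSeq's GRCm38.p6 table, on the coding strand and 5′ to 3′, with every CG dinucleotide in capitals. Hprt lies at chrX:52987828-52988077 (plus strand), G6pd2 at chr5:61808593-61808842 (plus strand) and Ldhal6b at chr17:5418768-5419017 (minus strand).
Hprt: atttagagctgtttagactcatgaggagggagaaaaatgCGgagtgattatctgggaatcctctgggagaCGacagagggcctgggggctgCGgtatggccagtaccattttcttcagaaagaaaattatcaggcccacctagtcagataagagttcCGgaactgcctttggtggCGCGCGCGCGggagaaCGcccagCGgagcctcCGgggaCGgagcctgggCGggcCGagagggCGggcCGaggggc
G6pd2: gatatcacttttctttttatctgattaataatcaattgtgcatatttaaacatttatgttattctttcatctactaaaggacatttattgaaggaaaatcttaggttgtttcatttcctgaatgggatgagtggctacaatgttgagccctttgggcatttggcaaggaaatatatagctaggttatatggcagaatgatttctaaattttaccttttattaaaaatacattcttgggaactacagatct
Ldhal6b: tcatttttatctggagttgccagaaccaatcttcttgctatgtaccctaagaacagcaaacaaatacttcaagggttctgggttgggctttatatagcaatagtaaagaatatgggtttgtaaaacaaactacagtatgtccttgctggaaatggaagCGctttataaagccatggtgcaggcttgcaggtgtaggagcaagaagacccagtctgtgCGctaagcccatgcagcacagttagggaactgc
The G6pd2 window held 0 CG dinucleotides, where 92.1% of the 32851 windows of that length in the table held at least 1. Only 1.61% of windows had as small a share of G and C as G6pd2, 30%, against a median of 52.4%. The Ldhal6b window held 2 CG dinucleotides and the Hprt window 17, against a median of 6. Of the windows not shown, Gk held 21, Gapdh 8 and Gusb 3. The motif TATAAA, searched on both strands with overlapping matches counted, occurred 3 times upstream of Ldhal6b and 0 times in the other 5 windows. It was present in 12.4% of all windows. The motif GGGCGG occurred 3 times upstream of Gk, 2 times upstream of Hprt and 0 times in the other 4 windows, against 32.7% of all windows with at least 1. These counts describe letters, and the array did not measure the promoters.

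The arrays differed in overall brightness. The 75th percentile of probe intensity, used to scale each array, ran from 486 to 585 units, highest on control replicate 1 and lowest on PTH replicate 1. Between 52.7% and 65.9% of spots were well above background, with the lowest share on PTH replicate 2, and no spot was saturated. Control replicate 2 decides how many probes on the whole array pass the test (below), so each enzyme is also given without it. The array numbers in the file headers begin with 1 for the 3 control arrays and PTH replicate 1 and with 2 for the other two PTH arrays, and what that digit stands for is not given in the sources used here. All 6 arrays share 1 scan.

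All 6 enzyme probes gave signal above background in these cells, those named for the testis-type copies included. For those copies the signal cannot be told apart from that of G6pdx or of related lactate dehydrogenases. On every array all 20 spots of every one of the 6 probes were marked as well above background. Ldhal6b was the dimmest, yet its array means were 7.40 to 10.7 times the 95th percentile of that array's negative control spots, and those of G6pd2 75.6 to 144 times. Against the 95th percentile of 300 other spots named as negative, a comparison chosen after seeing the data, the multiples were 3.87 to 5.75 for Ldhal6b and 39.5 to 65.5 for G6pd2. In brightness the 6 probes kept 1 order on every array, from Gapdh through Hprt, Gusb, G6pd2 and Gk to Ldhal6b. This is an order of spot brightness, not of transcript number, since probes differ in how strongly they bind.

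Not one of the 6 enzymes passed the test for a difference between PTH and control cells. The count was 0 of 6 at a Benjamini-Hochberg adjusted p under 0.05 (limma, fitted over 37011 probes) and also 0 of 6 at an unadjusted p under 0.05. Over all tested probes 0.00540% passed the first threshold and 15.1% the second. For none of the 6 did the 3 PTH values all lie on one side of the 3 control values, which was the case for 21.3% of 36881 probes. A difference that misses the threshold does not show equal levels, so the interval of each is given. Without control replicate 2 the count was still 0 of 6, while 14.0% of all probes then passed.

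**Figure D1:**
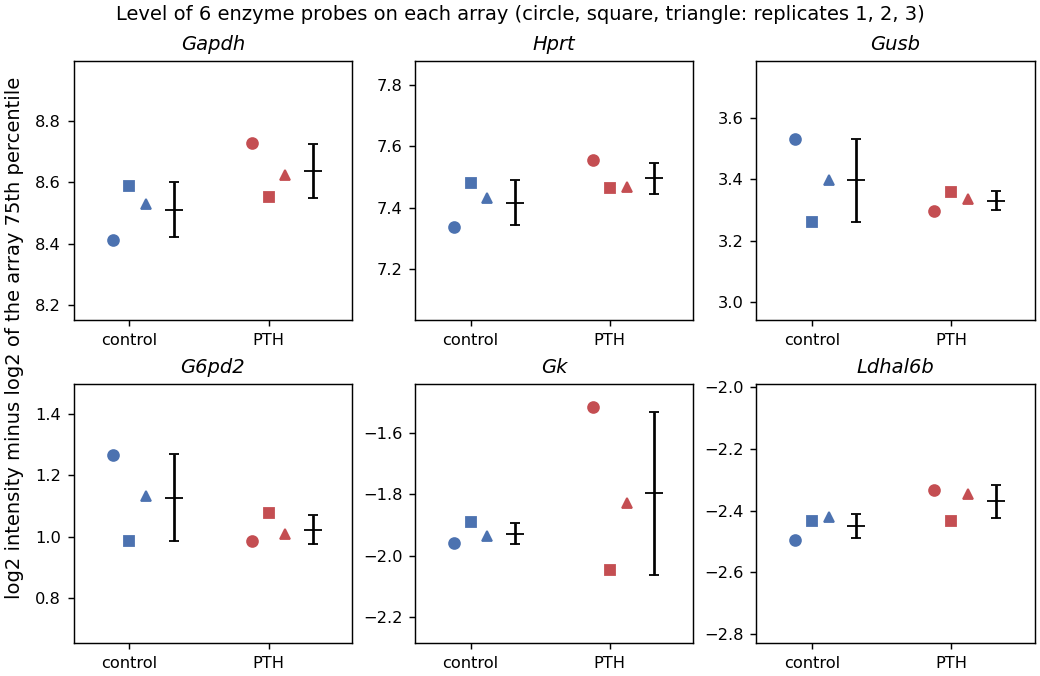
Level of each enzyme probe on each array, as log2 intensity minus log2 of the array's 75th percentile (y axis, the same span in each panel), for control and PTH cells. Circles, squares and triangles are replicates 1, 2 and 3, and bars give the mean and SD of 3 arrays. The groups overlap in every panel, and the widest spread is that of Gk in PTH cells.

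Gapdh, glyceraldehyde phosphate dehydrogenase, carries glycolysis through its first energy-yielding oxidation. Its spots averaged 199616, 193719 and 203734 intensity units on control replicates 1, 2 and 3. The PTH replicates 1, 2 and 3 averaged 205978, 202872 and 200110. The brightest array exceeded the dimmest by only 6.33%, less than the arrays' overall brightness varied. On the scale relative to the 75th percentile the control levels were 8.41, 8.59 and 8.53 and the PTH levels 8.73, 8.55 and 8.62. PTH replicate 1 was highest and control replicate 1 lowest, and the groups overlapped because PTH replicate 2 lay below control replicate 2. The difference was 0.12 on the log2 scale (SE 0.073, limma adjusted p = 0.42), a PTH to control ratio of 1.09 (95% confidence interval 0.969 to 1.23). It was 0.076 without control replicate 1 and 0.078 without PTH replicate 1. Centring on the array median gave 0.13 and centring on the RefSeq-named probes 0.092. After quantile normalization it was -0.0048, so its direction depends on the scaling.

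Ldhal6b, the lactate dehydrogenase-like gene, gave 104, 93.2 and 103 intensity units on control replicates 1, 2 and 3. In PTH cells the values were 96.5, 100.03 and 99.8. These 6 values lay within 11.5% of each other, and control replicate 2 was the lowest. Relative to the 75th percentile the controls were at -2.49, -2.43 and -2.42 and the PTH arrays at -2.33, -2.43 and -2.34. PTH replicate 2 lay among the controls, and the other two PTH arrays above them. The difference was 0.079 (SE 0.079, limma adjusted p = 0.62), a ratio of 1.06 (95% confidence interval 0.930 to 1.20). After quantile normalization it was 0.082. Before scaling the mean intensity was 100.04 in control and 98.8 in PTH cells, so the higher level in PTH cells appeared only after scaling.

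G6pd2, the retrocopy of glucose-6-phosphate dehydrogenase, averaged 1407, 996 and 1207 intensity units on control replicates 1, 2 and 3. In PTH cells the replicates averaged 962, 1140 and 1019. Control replicates 1 and 3 were the highest, while control replicate 2 lay near the lowest PTH array. After scaling the controls were at 1.27, 0.99 and 1.13 and the PTH arrays at 0.99, 1.08 and 1.01, so the groups still overlapped through control replicate 2. The difference was -0.10 (SE 0.082, limma adjusted p = 0.53), a ratio of 0.931 (95% confidence interval 0.816 to 1.06). Without control replicate 2 it was -0.17, with a limma adjusted p of 0.12, and without control replicate 1 it was -0.035, with one of 0.92.

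Gk, glycerol kinase, gave 151, 136 and 144 intensity units on control replicates 1, 2 and 3. For PTH replicates 1, 2 and 3 the values were 170, 131 and 143. PTH replicate 1 was the highest and PTH replicate 2 the lowest of all 6 arrays. After scaling the controls spanned -1.96 to -1.89, whereas PTH replicates 1, 2 and 3 were at -1.52, -2.05 and -1.83. The SD was 0.034 in control and 0.27 in PTH cells (n = 3 each), and the difference in spread was not tested. The group difference of 0.13 (SE 0.13, limma adjusted p = 0.62) corresponds to a ratio of 1.09 (95% confidence interval 0.889 to 1.35), the widest interval of the 6. It rested on PTH replicate 1, since without that array it was -0.0090, and without PTH replicate 2 it was 0.26.

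Hprt, which returns hypoxanthine and guanine to nucleotides, averaged 94664, 89823 and 95222 intensity units on control replicates 1, 2 and 3. On PTH replicates 1, 2 and 3 it averaged 91302, 95450 and 89757. As with Gapdh, the brightest array exceeded the dimmest by 6.34%. After scaling the controls were at 7.34, 7.48 and 7.43 and the PTH arrays at 7.55, 7.47 and 7.47, with control replicate 1 lowest and PTH replicate 1 highest. The difference was 0.079 (SE 0.063, limma adjusted p = 0.53), a ratio of 1.06 (95% confidence interval 0.955 to 1.17). It was 0.040 without control replicate 1 and 0.050 without PTH replicate 1. Before scaling the mean intensity was 93236 in control and 92169 in PTH cells. Centring on the array median gave a difference of 0.089 and centring on the RefSeq-named probes 0.047. After quantile normalization the difference was -0.084, so its direction is not settled either.

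Gusb, the lysosomal beta-glucuronidase, averaged 6767, 4826 and 5806 intensity units on control replicates 1, 2 and 3. On PTH replicates 1, 2 and 3 it averaged 4773, 5542 and 5115. Control replicate 1 was highest and the groups overlapped, with control replicate 2 near the lowest value. After scaling the controls were at 3.53, 3.26 and 3.40 and the PTH arrays at 3.30, 3.36 and 3.33. The difference was -0.066 (SE 0.078, limma adjusted p = 0.68), a ratio of 0.955 (95% confidence interval 0.842 to 1.08). Without control replicate 2 it was -0.13 (limma adjusted p = 0.19) and without control replicate 1 it was 0.0011.

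**Figure D2:**
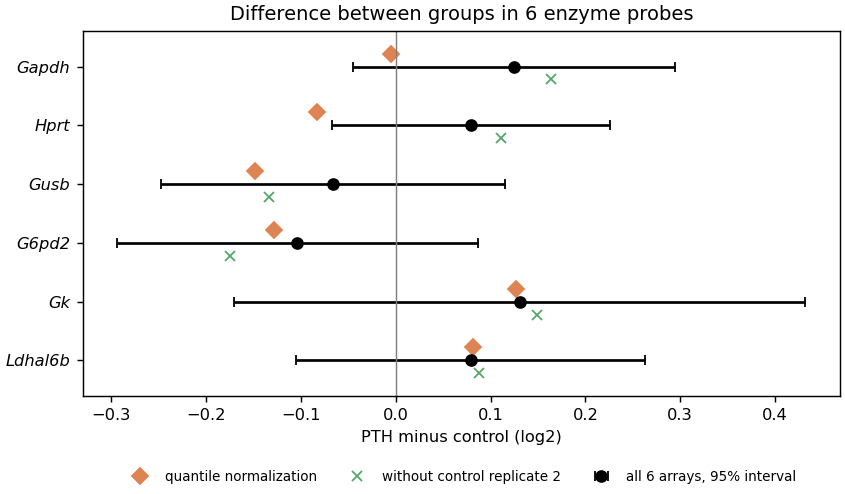
PTH minus control difference of each enzyme probe on the log2 scale (x axis). Black points and bars are the estimate and its 95% confidence interval from all 6 arrays, orange diamonds the value after quantile normalization and green crosses the value without control replicate 2. Every black interval includes 0, and quantile normalization moves Gapdh to -0.0048 and Hprt to -0.084.

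For the enzymes not yet given without control replicate 2, the differences without it were 0.16 for Gapdh, 0.11 for Hprt, 0.15 for Gk and 0.088 for Ldhal6b, with limma adjusted p-values from 0.19 to 0.57. With this first digit as a block the differences were 0.22 for Gapdh, 0.14 for Hprt, 0.41 for Gk, 0.12 for Ldhal6b, -0.14 for G6pd2 and -0.10 for Gusb. Their limma adjusted p-values ran from 0.74 to 0.80. The arrays numbered with 1 alone gave the same differences, with limma adjusted p-values from 0.84 to 0.87. Both rest on PTH replicate 1, the only PTH array among them, which is taken to vary like the others.

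The 20 spots per array show how far noise between spots of the same array reaches. For G6pd2 all 120 spots over the 6 arrays were usable, and their coefficient of variation within an array was 2.17% to 4.07%. For Gusb it was 1.03% to 2.76%, for Hprt 1.61% to 2.85% and for Gapdh 1.27% to 4.61%. The 2 dimmest probes were noisier, at 4.89% to 12.8% for Gk and 5.85% to 12.8% for Ldhal6b. Of 120 Gk spots 15 were left out as outliers, up to 6 of 20 on PTH replicate 2. The coefficients use only the spots kept, and the lowest of Gk was on that array.

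Spots of 1 array share their RNA, its labelling and its hybridisation, so they measure technical error within an array alone. Technical differences between arrays are part of the SD across arrays and were not measured apart. The largest standard error of an array's mean level from its spots was 0.013 on the log2 scale for G6pd2 and 0.0096 for Gusb. The SD of the scaled level across the 6 arrays was 0.11 and 0.095, which is 8.28 and 9.82 times as large. For Gapdh and Hprt that multiple was 7.13 and 7.52, and for Gk 4.50. For Ldhal6b the SD across arrays, 0.061, was 1.44 times its largest spot error, 0.042.

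**Figure D3:**
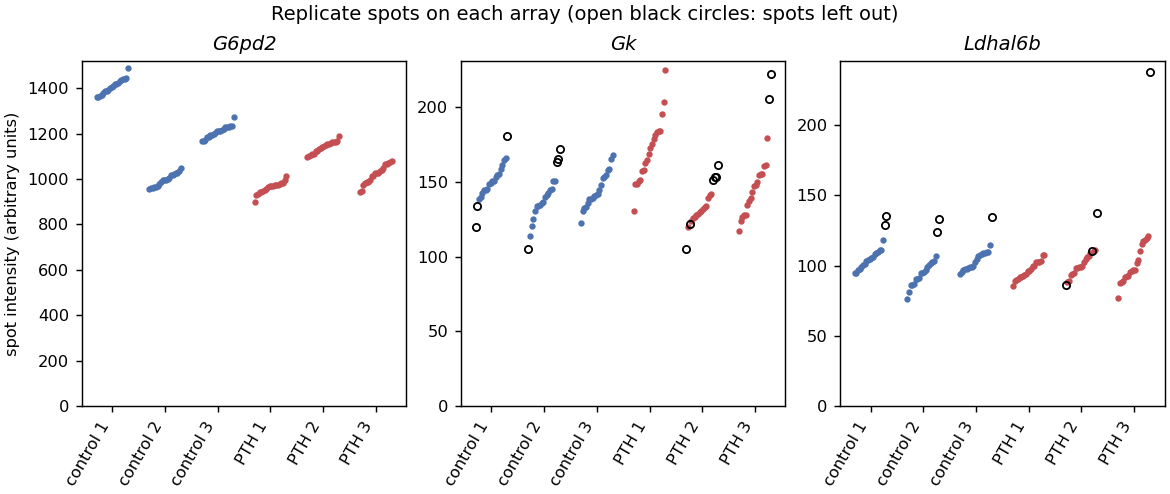
Intensity of each of the 20 replicate spots (y axis, arbitrary units, from 0) on each array (x axis) for G6pd2, Gk and Ldhal6b, sorted by intensity within an array. Blue points are control and red points PTH spots, and open black circles are spots left out as outliers. The G6pd2 spots of control replicate 1 lie above those of every other array, whereas the Ldhal6b spots of all arrays overlap and 1 left-out spot on PTH replicate 3 reaches 237 units.

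The enzymes followed the arrays in different ways. Scaled Gapdh and Hprt were lowest on control replicate 1, where G6pd2 and Gusb were highest. By the root mean square difference of scaled profiles over the 6 arrays, each centred on its own mean, the probe nearest to G6pd2 among the 15 with a RefSeq name was Gusb, at 0.023 log2 units. The next was Hsp90ab1, a chaperone gene, at 0.051. For Gapdh the nearest were Ppia, which encodes cyclophilin A, at 0.026 and Hprt at 0.036. For Ldhal6b they were Ppia at 0.035 and Hprt at 0.036, and for Gk Gapdh at 0.11 and Ppia at 0.12. For Hprt the nearest 2 were Gapdh and Ldhal6b, each at 0.036, and for Gusb G6pd2 at 0.023 and Hsp90ab1 at 0.055.

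A difference taken between 2 probes of 1 array is free of any scaling that uses a single constant per array, such as the 75th percentile, though not of quantile normalization. Of the 15 pairs, G6pd2 and Gusb had the most constant difference, with an SD of 0.025 over 6 arrays. This SD and the root mean square difference above are the same measure up to a constant factor, and so not separate results. G6pd2 minus Gusb was -2.27, -2.28 and -2.27 on control replicates 1, 2 and 3. On PTH replicates 1, 2 and 3 it was -2.31, -2.28 and -2.33. The size reflects both probes' binding and only its change between arrays can be read. All PTH values lay below all control values, with a mean difference of -0.037. The nearest were control replicate 2 at -2.276 and PTH replicate 2 at -2.282. On these 2 arrays the standard errors from the spots were 0.0046 to 0.0091 for the 2 probes, so this separation is within spot error. The exact two-sided permutation test gave p = 0.10, the smallest that 3 against 3 arrays allow, and 0.60 after adjustment over 15 pairs. Quantile normalization turned the difference to 0.020. It was the only 1 of the 15 pairs whose groups did not overlap.

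Gapdh minus Hprt and Ldhal6b minus Hprt were the next most constant, with SDs of 0.0394 and 0.0395. Gapdh minus G6pd2 varied more, with an SD of 0.21. It was 7.15, 7.60 and 7.40 on control replicates 1, 2 and 3 and 7.74, 7.48 and 7.62 on PTH replicates 1, 2 and 3. The groups overlapped, with a difference of 0.23 (exact permutation p = 0.20, adjusted 0.60, n = 3 each). It was 0.11 without control replicate 1 and 0.34 without control replicate 2. The largest SD, 0.26, was that of G6pd2 minus Gk, which was lowest on PTH replicate 1 at 2.50 and highest on control replicate 1 at 3.22.

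**Figure D4:**
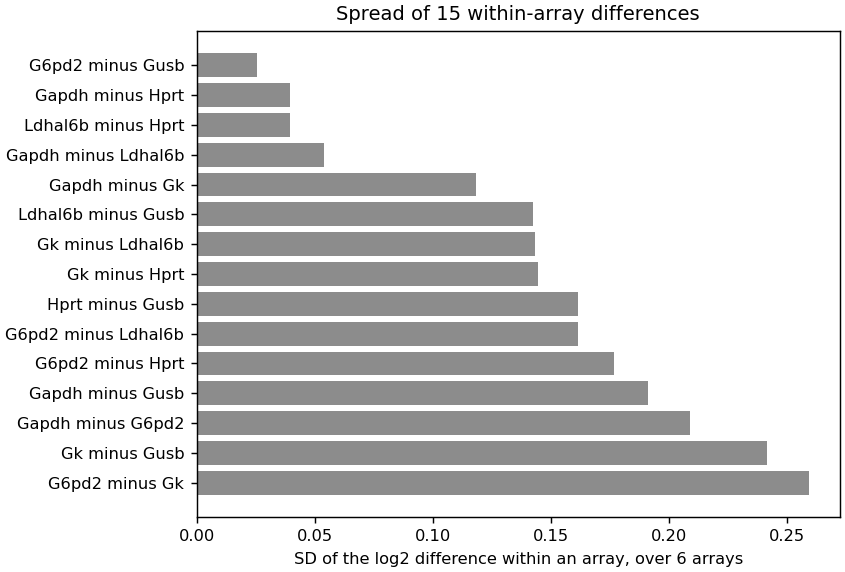
SD over the 6 arrays of the log2 difference between 2 enzyme probes within an array (x axis, from 0) for all 15 pairs (y axis). G6pd2 minus Gusb has the shortest bar, 0.025, and G6pd2 minus Gk the longest, 0.26.

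The spread over the 6 arrays was set beside that of other probes. Of the 37011 tested probes, 89.7% had a larger SD than Ldhal6b, 84.5% than Hprt, 70.3% than Gusb, 64.3% than Gapdh and 61.3% than G6pd2. For Gk the share was 26.0%. Each enzyme is a mean of up to 20 spots, while all but 15 of the array's 60915 probes have 1 spot, so these shares are not like for like.

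The array also has control spots named GAPDH with a species and a final digit of 3 or 5. What the digit stands for is not given in the sources used here. The Mouse-GAPDH_3 spots behaved as the RefSeq-named probe did, at 8.01 ± 0.10 in control and 8.13 ± 0.083 in PTH cells relative to the 75th percentile (SD, n = 3 each). That is a difference of 0.12, with overlapping groups (exact permutation p = 0.20). The Mouse-GAPDH_5 spots went the other way, at 6.70, 6.57 and 6.66 on control replicates 1, 2 and 3 and 6.55, 6.56 and 6.55 on PTH replicates 1, 2 and 3. All 3 PTH values lay below all 3 control values, a difference of -0.091 (exact permutation p = 0.10, the smallest possible).

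Of the 6 GAPDH control probes, 5 had a lower mean in PTH cells, while the median difference over all tested probes was 0.0102. In 3 of them, the ones ending in 5, the groups did not overlap, against 21.3% of the tested probes. That share is not like for like, since nearly all tested probes have 1 spot and these are means of 8 to 10 spots. Human-GAPDH_5 differed by -0.23 and Rat-GAPDH_5 by -0.18 on the log2 scale (exact permutation p = 0.10 each). Adjusted over the 12 control probes named for GAPDH or PGK1, the smallest p was 0.40. Human-GAPDH_3 differed by -0.074 and Rat-GAPDH_3 by -0.047, both with overlapping groups. The 2 mouse-named control probes thus differed in direction, and whether the Human- and Rat-named probes read mouse Gapdh was not tested. The Mouse-GAPDH_3 minus Mouse-GAPDH_5 difference was 1.20, 1.53 and 1.36 on control replicates 1, 2 and 3. On PTH replicates 1, 2 and 3 it was 1.67, 1.51 and 1.55. These differences ranked the 6 arrays in the same order as the scaled level of the RefSeq-named Gapdh probe, from control replicate 1 up to PTH replicate 1. Rat-GAPDH_3 minus Rat-GAPDH_5 was 0.304 to 0.374 in control and 0.455 to 0.500 in PTH cells. Human-GAPDH_3 minus Human-GAPDH_5 was 4.81 to 5.04 in control and 5.06 to 5.14 in PTH cells. In the Mouse-GAPDH and the PGK1 differences the groups overlapped. In each of these differences, PGK1 included, control replicate 1 was lowest and PTH replicate 1 highest. The part of these differences in the results for the 6 enzymes was not tested.

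**Figure D5:**
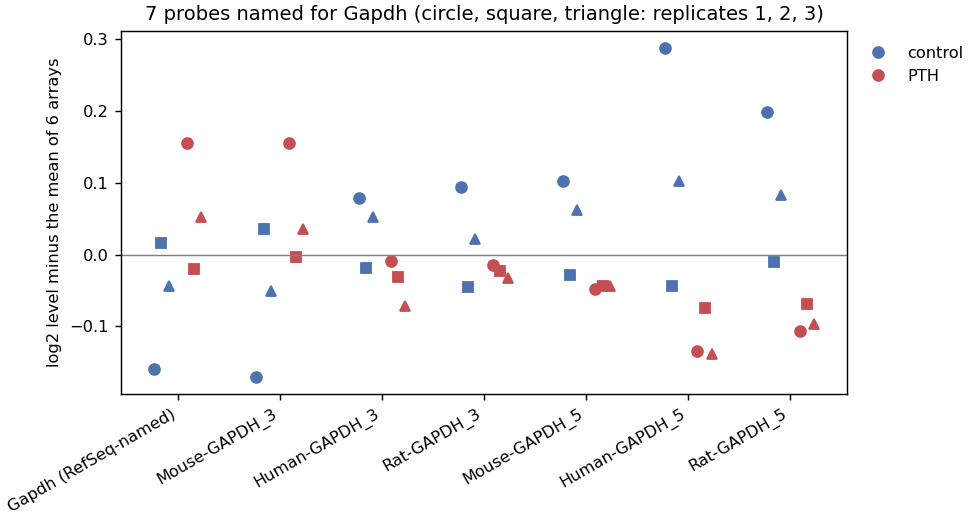
Level of 7 probes named for Gapdh on each array, as the log2 value relative to the 75th percentile minus the probe's mean over 6 arrays (y axis). Blue marks are control and red marks PTH arrays, and circles, squares and triangles are replicates 1, 2 and 3. The RefSeq-named probe and Mouse-GAPDH_3 are lowest on control replicate 1, whereas the other 5 probes are highest there.

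Among the genes of the pathway list, Pgk1, phosphoglycerate kinase, which acts in the step after Gapdh, was the only 1 with control spots. Mouse-PGK1_3 stood at 8.15 ± 0.028 in control and 8.17 ± 0.051 in PTH cells, and Mouse-PGK1_5 at 0.84 ± 0.28 and 0.61 ± 0.021 (SD, n = 3 each). Both overlapped between groups, with exact permutation p of 0.70 and 0.40. The Mouse-PGK1_5 spots were highest on control replicate 1, at 1.12, and next on control replicate 3, at 0.85, with control replicate 2 at 0.56. Human-PGK1_5 differed between groups by -0.24, Rat-PGK1_5 by -0.26, Human-PGK1_3 by -0.018 and Rat-PGK1_3 by 0.23, all with overlapping groups. Every control probe ending in 5, GAPDH and PGK1 alike, thus had a lower mean in PTH cells. Those ending in 3 went in both directions, and the cause was not tested.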

How the data were processed

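RNA of 3 control and 3 PTH samples was labelled in 1 colour, 1 array each. The deposited values are spot intensities from Agilent Feature Extraction 11.0.1.1, background-subtracted and detrended within the array per the file headers, and not normalized between arrays. Per the file headers, the design uses mm9.

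Control spots, spots named as negative and spots marked as outliers were left out. Spots of 1 probe were averaged as log2 intensity, and log2 of the array's 75th percentile was subtracted. Tested were probes marked well above background in every array of a group (either one sufficed) with at least 2 usable arrays per group, by limma 3.58.1 in R 4.3.3 (intensity trend, two-sided, Benjamini-Hochberg over all 37011). The fit was tested on simulated data. Single differences used exact permutation tests. The number of arrays limits the precision, and p-values measure the spread between these samples.

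A RefSeq table (GRCm38.p6) gave the symbols, and all 15 unversioned accessions had an entry. The 6 enzymes are always named, with the 2 nearest RefSeq-named probes of each and the control spots named for Gapdh or a pathway gene. Genes, lists and tests were chosen with earlier results of these data known. Alternatives were 3 other normalizations, normexp background (offset 50, on the median spot signal), 2 other filters, all spots kept, blocks by replicate number or by the first digit of the array number, no trend, array weights and each array left out. The arrays numbered with 1 alone, and detection against the spots named as negative, were added after the files were seen.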

Additional observations from a re-analysis of the deposited data

How the results depend on the processing

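The count of 0 of the 6 enzymes held in every alternative run. In most of these only 2 or 3 probes of the whole array were called, so the count could hardly differ there. It had more room with array weights, where 12150 of the 37011 tested probes were called, and without control replicate 2, where 14.0% were. The count over all probes, 2, was 9 with the replicate block, 16 with the first digit of the array number as a block, 10 in the arrays numbered with 1 alone (chosen after seeing the data), 12150 with array weights and 5590 at the unadjusted threshold. It ran from 2 to 5408 when each array was left out, and was 2 except without control replicate 2. The array weights were 13.6 for control replicate 3 and 0.31 to 1.47 for the other arrays. The control level of the weighted fit thus rests mostly on 1 array. The lowest limma adjusted p of an enzyme was 0.081, for G6pd2 with array weights, against 0.92 at its highest. No pairing of the arrays by replicate number was seen, though so few arrays cannot exclude it. Deviations of same-numbered arrays correlated at 0.13, 0.0042 and -0.074, and 2 of 6 arrays correlated best with their own number. The replicate block called 0 enzymes, as every setting did, so that count does not bear on pairing.

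Of 108 enzyme differences under alternatives 104 kept their direction, but some of them could not do otherwise. The 2 other filters, the replicate block and dropping the trend left every estimate unchanged. The block by first digit and the arrays numbered with 1 alone gave the same differences as each other. Gapdh was -0.0048 and Hprt -0.084 after quantile normalization, Gk -0.0090 without PTH replicate 1 (0.26 without PTH replicate 2) and Gusb 0.0011 without control replicate 1 (-0.13 without control replicate 2). Of 105 within-array differences 93 kept theirs. Quantile normalization reversed Gapdh minus Ldhal6b to -0.087, G6pd2 minus Gusb to 0.020 and Ldhal6b minus Hprt to 0.17. The last, near 0 with all arrays, ran from -0.027 to 0.017 when each array was left out and was above 0 without control replicate 1 or 3 and without PTH replicate 1 or 2. Gapdh minus Gk ran from -0.090 to 0.087 and was above 0 without control replicate 2 or 3 and without PTH replicate 1. Without PTH replicate 1, Gk minus Ldhal6b was -0.069 (up to 0.14 without other arrays) and Gk minus Hprt -0.059 (up to 0.16). Control intensities from the median of all spots moved by less than the SD between replicates. The causes were not tested. Among the 6, spot error came nearest to the spread between arrays for Ldhal6b, the dimmest probe.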
